A study of Mus musculus with 12 samples.

Results

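Heat shock proteins and DnaJ proteins are the molecular chaperones that fold, refold and deliver proteins for degradation. The genes described here were taken by symbol: every gene whose name starts with Hspa, Hspb, Hspd, Hspe, Hsph, Hsp90, Dnaja, Dnajb or Dnajc, with pseudogene symbols left out. That gave 69 genes of 16503 listed in the table of muscle stem cells (MuSCs) and myoblasts, and 67 of 16169 in the table of Nedd4L genotypes. All 67 are among the 69, and Hspb7 and Dnajb7 are listed in the first table only. The symbol rule also takes in genes that are no heat shock proteins: Hspbp1 and Hspbap1, which encode binding partners of Hsp70 and Hsp27, and Hspb11, an intraflagellar transport subunit now named Ift25.

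The Hsp70 proteins, encoded by Hspa genes, bind exposed hydrophobic stretches of unfolded proteins and release them in an ATP-driven cycle. DnaJ proteins, also called Hsp40, carry clients to Hsp70 and start its ATP hydrolysis. Hsph1 and the Hspa4 genes encode Hsp110-type proteins that exchange the nucleotide. Hsp90 finishes the folding of kinases and receptors, Hspd1 and Hspe1 form the mitochondrial chaperonin, and the small heat shock proteins of the Hspb genes hold unfolding proteins without ATP. In skeletal muscle several Hspb proteins, among them Hspb8 with the co-chaperone Bag3, attend to the proteins of the sarcomere. A stress-inducible subset, led by Hspa1a and Hspa1b, is switched on by heat shock factor through heat shock elements.

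RNA was sequenced by SMART-Seq from 1000 sorted cells per library, in 12 libraries of 4 groups with 3 mice each. In the first comparison, the MuSC libraries (04, 05 and 06) were made from freshly sorted cells of 3 WT mice, whose age is not given for this experiment in the sources used here. The myoblast libraries, also WT, were made from MuSCs grown for 3 days in Ham's F10 with serum and bFGF and then trypsinized. They carry the same sample numbers as the MuSC libraries, which is read here as the same mice, although no label says so. In the second comparison, MuSCs freshly sorted from 3 Nedd4L-cKO mice were set against MuSCs of 3 other WT mice, all male and between 5 and 6 weeks old by the study's methods. The cKO, on a C57BL/6 background, carries Nedd4L fl/fl, with exon 15 between loxP sites, and Pax7 cre/+, so that the ubiquitin ligase gene is cut in cells that express Pax7 and in all their progeny, muscle fibers included. Hindlimb muscle was digested with collagenase and dispase in 2 steps of 30 minutes, at 37°C, and the gate took ITGA7+ cells that lacked CD31, CD45, CD11b and SCA1. Values are the authors' DESeq2-normalized counts, scaled here so that the mean library total of a table is 1000000 (RPM). The word called is used for genes with an adjusted p no higher than 0.05 over all genes tested (limma on log2(RPM + 1), Benjamini-Hochberg). The p-values set the difference between groups against the spread between libraries within a group. In the first comparison the main fit left the shared sample numbers out, and a block by number was an alternative.

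Totals ran from 33189802 to 37595659 normalized counts in the first table and from 40323468 to 50687122 in the second. Nedd4l, the deleted gene, measured 70.2, 96.4 and 66.7 RPM in WT MuSCs. Its 3 values in Nedd4L-cKO MuSCs were 30.2, 36.3 and 22.5 RPM, lower than in WT (log2 fold change -1.37 ± 0.28, adjusted p = 0.0467). This is a value over the whole gene and not over exon 15, and the rest of the gene can still be transcribed, so that it is no direct check of the deletion. In myoblasts Pax7 lay between 17.8 and 21.2 RPM, against 151 to 249 RPM in MuSCs, and Myod1 between 1000.04 and 1800.5 RPM, against 167 to 188 RPM. Of 9 MuSC markers 7 were called lower in myoblasts and none higher. Of 8 myoblast markers only 4 were called higher and none lower, and the cell cycle genes Mki67, Top2a, Ccnb1 and Cdk1 were not called. Myog was already at 524 to 732 RPM in MuSCs, against 3344 to 4521 RPM in myoblasts. Fewer cells that express a gene and less RNA of it per cell cannot be told apart in such bulk libraries.

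Together the members took 1.35% to 1.73% of all normalized counts in MuSCs, 1.62% to 1.78% in myoblasts, 1.59% to 1.77% in the WT libraries and 1.63% to 2.02% in the Nedd4L-cKO libraries, ranges that overlap. Hspa8, the constitutive Hsp70 of the cytosol, was the largest by far. Per kilobase of transcript its level was 2435 ± 705 RPM in MuSCs and 1644 ± 73.0 RPM in myoblasts (SD, n = 3), followed by Hsp90ab1 at 593 ± 124 and 671 ± 78.1 RPM per kilobase. Hsp90b1 and Hspa5, the Hsp90 and Hsp70 of the endoplasmic reticulum (ER), took the next places in both groups. Between those ER genes the order was not separated by the spread: in MuSCs Hsp90b1 was at 424 ± 84.0 and Hspa5 at 312 ± 45.6 RPM per kilobase, and in myoblasts at 356 ± 40.7 and 402 ± 106. Hspa8 and Hsp90ab1 also led in the genotype table, at 2378 ± 346 and 505 ± 22.2 RPM per kilobase in WT MuSCs.

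Promoter sequence is shown for 3 inducible genes described below whose windows hold a pair of heat shock units, the repeats that heat shock elements are built from. They were picked for holding the pair, and Dnajb1, an inducible gene that also differed, holds none in its window and is not shown. A pair is a match of letters, and binding was not measured. Imperfect units and sites further away were not searched for. The 250 bases upstream of the start of each gene's canonical transcript (GENCODE M39 on GRCm39) were searched on both strands for a pair of heat shock units, GAANNTTC or TTCNNGAA, which may overlap each other, and both of which read the same on either strand. At least 1 such pair stood in 11 of the 69 member windows (15.9%) and in 2674 of 21770 protein-coding windows (12.3%). Other annotated transcripts of a gene can start further upstream and reach into its window, as for Hspd1, Hspe1, Hspa5 and Hsp90b1, but the Hspa1a, Hspa1b and Hspb1 windows lie outside the whole annotated gene. Hspa1a and Hspa1b hold 1 pair each and Hspb1 holds 2. Their windows follow, 5′ to 3′ on the gene's strand, with the pairs in capitals; Hspa1a lies at chr17:35191133-35191382 (minus strand), Hspa1b at chr17:35178215-35178464 (minus strand) and Hspb1 at chr5:135916510-135916759 (plus strand).
Hspa1a: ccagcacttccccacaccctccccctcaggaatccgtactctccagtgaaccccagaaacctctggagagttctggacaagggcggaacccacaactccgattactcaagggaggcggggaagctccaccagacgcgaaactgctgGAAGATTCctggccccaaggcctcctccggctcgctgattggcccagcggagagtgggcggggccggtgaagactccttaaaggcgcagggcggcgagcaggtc
Hspa1b: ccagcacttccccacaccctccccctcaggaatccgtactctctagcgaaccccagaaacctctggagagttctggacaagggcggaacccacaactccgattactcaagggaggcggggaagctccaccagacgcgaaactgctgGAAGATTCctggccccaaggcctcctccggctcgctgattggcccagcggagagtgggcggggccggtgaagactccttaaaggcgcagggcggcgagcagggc
Hspb1: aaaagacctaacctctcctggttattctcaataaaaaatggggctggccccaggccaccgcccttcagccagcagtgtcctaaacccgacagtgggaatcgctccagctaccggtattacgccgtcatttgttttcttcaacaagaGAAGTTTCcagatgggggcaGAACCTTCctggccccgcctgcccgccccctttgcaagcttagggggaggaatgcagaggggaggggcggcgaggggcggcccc
The Hspa1a and Hspa1b windows differ at 3 of 250 bases. Their transcripts are close too: 63.8% of the 31-base words of Hspa1a occur in Hspa1b and 67.6% of those of Hspa1b in Hspa1a, so that reads can be split between them and each gene's value is uncertain on its own. The Hspb8 window and the Dnajb1 window hold neither pair.

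A longer form with 3 units stood in 0.349% of all windows and in those of Hspd1 and Hspe1, the chaperonin genes, which diverge from starts 108 bases apart. They share 1 stretch of 4 units, which holds 2 overlapping matches. The ER stress response element, CCAAT and CCACG with 9 bases between them, was in 0.115% of all windows and in those of Hspa5, Hsp90b1 and Dnajc3, the last an ER-resident DnaJ protein. The sites are shown on the strand of the gene with the match in capitals. They lie at chr1:55127213-55127240 for Hspe1, chr2:34662032-34662060 for Hspa5, chr10:86541497-86541525 and chr10:86541392-86541420 for Hsp90b1, and chr14:119175234-119175262 for Dnajc3.
Hspe1 and Hspd1 (plus strand): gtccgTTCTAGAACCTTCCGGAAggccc
Hspa5 (plus strand): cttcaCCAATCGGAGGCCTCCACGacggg
Hsp90b1, outer (minus strand): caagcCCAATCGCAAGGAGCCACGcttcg
Hsp90b1, inner (minus strand, match on the other strand): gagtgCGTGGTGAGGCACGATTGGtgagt
Dnajc3 (plus strand): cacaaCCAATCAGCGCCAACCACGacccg

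When MuSCs had been cultured into myoblasts, the chaperone genes separated into groups. The small heat shock proteins named Hspb rose, in part from nothing listed, while the inducible Hsp70 genes and their partner Dnajb1 fell. Other DnaJ genes were called in both directions. Hspa8, Hsp90ab1, Hsp90b1 and Hspa5, the 4 highest members per kilobase in both groups, did not pass the test. Of 68 members tested, 34 were called (50.0%), against 42.8% of all 15345 genes tested: 20 were higher in myoblasts, where 22.2% of all genes were, and 14 were lower, where 20.6% of all genes were. The members' median log2 fold change was 0.17 and that of all genes 0.04. Libraries of the groups did not overlap for 38 members (55.9%), against 55.2% of all genes, so the share that moved was near that of all genes. The filter asked for 10 normalized counts in 3 libraries, and 1 of the 69 members did not pass it. The 20 higher members include Hspb3, Hspb7 and Dnajb7, which passed the filter only through the myoblast libraries.

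**Figure D1:**
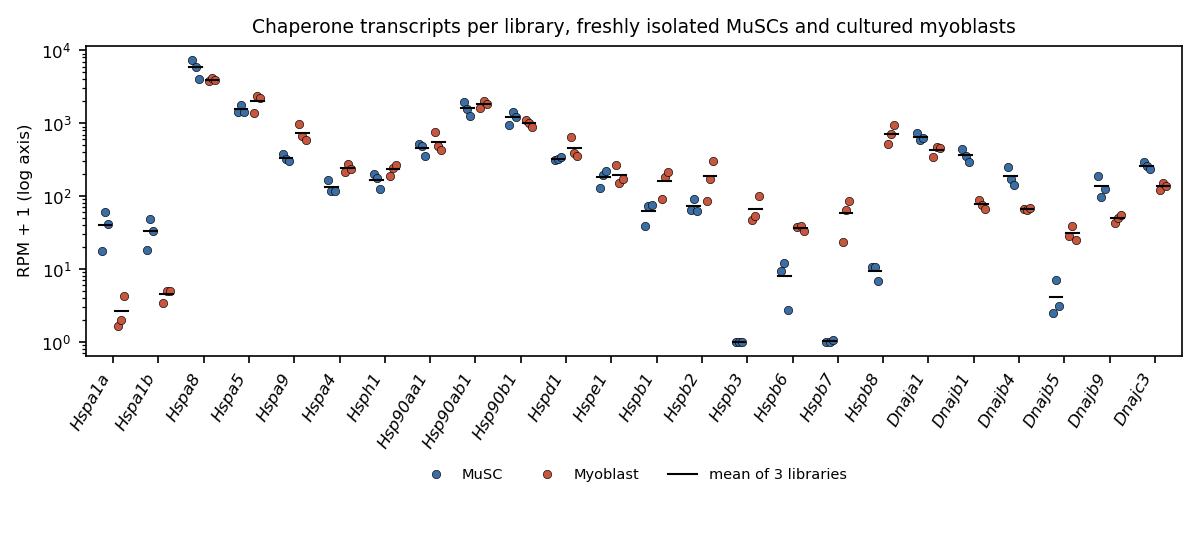
Level of 24 chaperone genes in each library of freshly isolated MuSCs (blue) and cultured myoblasts (red), as RPM + 1 on a log axis, with a bar at the mean of 3 libraries. Hspb3, Hspb7 and Hspb8 are far higher in all 3 myoblast libraries, Hspa1a, Hspa1b and Dnajb1 are lower in all 3, and the Hsp90 genes overlap.

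Hspb8, a small heat shock protein that works with Bag3 in chaperone-assisted autophagy, measured 9.67, 9.76 and 5.78 RPM in MuSCs and 511, 702 and 936 RPM in myoblasts. It was 85.3-fold higher in myoblasts by the group means, with a log2 fold change of 6.24 ± 0.28 (SE, adjusted p = 1.6e-06). By level per kilobase it went from place 50 among the members to place 5.

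Hspb3, which forms a complex with Hspb2 in muscle, was listed at 0 in all 3 MuSC libraries and at 45.8, 52.7 and 98.6 RPM in myoblasts (adjusted p = 6.95e-06). Hspb7, a heart and muscle small heat shock protein, was listed at 0, 0 and 0.0648 RPM in MuSCs and at 22.8, 63.9 and 85.2 RPM in myoblasts (adjusted p = 3.55e-05). Both were therefore near absent from the freshly sorted cells, and no fold is given against values at or near 0. Both entered the test only through the myoblast libraries, so their direction was fixed by the filter and their adjusted p is no support for it. Hspb6, also called Hsp20, stood at 8.37, 11.1 and 1.70 RPM in MuSCs and rose to 36.4, 37.6 and 32.2 RPM (log2 fold change 2.43 ± 0.52, adjusted p = 0.00529).

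Hspb1, the ubiquitous Hsp27, was at 37.7, 72.6 and 74.4 RPM in MuSCs and at 91.2, 183 and 212 RPM in myoblasts, a rise of 1.36 ± 0.37 on the log2 scale (adjusted p = 0.0164). The groups did not overlap, yet the call was lost without MuSC 04 or without myoblast 05. Hspb2 was called as well (log2 fold change 1.19 ± 0.40, adjusted p = 0.0408), but myoblast 04 at 85.4 RPM lay below MuSC 05 at 91.7 RPM, and the call was lost in 5 of the 6 fits that leave out a library. All 6 small heat shock protein genes that were tested were therefore called higher, where 22.2% of all genes were, with a median log2 fold change of 4.04. The count and the median include Hspb3 and Hspb7, whose direction was fixed by the filter. Hspb1, Hspb2, Hspb6 and Hspb8 reached the minimum count in the MuSC libraries as well. Hspb11 did not pass (-0.49, adjusted p = 0.216). Cryab, the small heat shock protein most abundant in muscle, is not named Hspb and is no member: it was at 722, 866 and 722 RPM in MuSCs and 309.9, 640.2 and 944 RPM in myoblasts (adjusted p = 0.361). Its start lies 329 bases from that of Hspb2 on the other strand.

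Muscle fiber genes moved in the same direction. The 12 myofiber markers summed to 532 to 799 RPM in MuSCs and to 10503, 14974 and 24565 RPM in myoblasts 04, 05 and 06, with 10 of 12 called higher and none at 0 in any library. Hspb1, Hspb2, Hspb3, Hspb7 and Hspb8 had the same order over the 3 myoblast libraries as that sum, with myoblast 04 lowest and 06 highest, while Hspb6 was lowest in myoblast 06. Whether the rise of the Hspb genes belongs to cells that had begun to differentiate was not tested.

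The inducible Hsp70 genes went the other way. Hspa1a was at 16.6, 59.5 and 40.2 RPM in MuSCs and at 0.669, 0.999 and 3.30 RPM in myoblasts (log2 fold change -3.86 ± 0.53, adjusted p = 0.000547). By the means it was 23.4-fold lower, and with 1 library left out from 17.1-fold (without MuSC 05) to 46.5-fold (without myoblast 06). Hspa1b was at 17.2, 47.3 and 32.1 RPM in MuSCs and at 2.45, 4.02 and 3.96 RPM in myoblasts (-2.80 ± 0.40, adjusted p = 0.000688). No myoblast library reached any MuSC library in either gene, and among the MuSC libraries MuSC 04 was lowest in both. Hspa1l, the third gene of that cluster and known from testis, was low throughout at 0 to 4.76 RPM and did not pass (adjusted p = 0.149).

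Dnajb1, the inducible Hsp40 that partners Hspa1a, fell from 446, 354 and 292 RPM to 87.4, 75.5 and 65.8 RPM, 4.78-fold by the means (log2 fold change -2.23 ± 0.21, adjusted p = 7.41e-05). Dnajb4, its close relative, was at 251, 170.1 and 141 RPM in MuSCs and at 66.2, 63.0 and 67.2 RPM in myoblasts (-1.46 ± 0.23, adjusted p = 0.00128). Dnaja1, a constitutive partner of Hspa8, was lower by 0.62 ± 0.19 on the log2 scale (adjusted p = 0.029). With the shared sample number as a block Dnaja1 no longer passed, nor did it without any 1 of the MuSC libraries. Dnajc14 (0.67 ± 0.20) was lost under the block too. Dnajb6, which keeps aggregation-prone proteins soluble and is mutated in a limb-girdle muscular dystrophy, fell by 0.91 ± 0.20 (adjusted p = 0.00553).

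Genes of the immediate early response, which tissue digestion is known to induce, fell with them. Of 19 such genes 18 were lower and none higher, with Fos at -8.24 ± 0.24, Fosb at -8.17 ± 0.23 and Nr4a1 at -5.89 ± 0.27 on the log2 scale, and the list summed to 13459, 19772 and 18159 RPM in the MuSC libraries against 872 to 1105 RPM in myoblasts. MuSC 04, the lowest in Hspa1a and Hspa1b, was also the lowest in that sum, whereas in Dnajb1 it was the highest. The part of isolation in the fall of Hspa1a, Hspa1b and Dnajb1 was not tested: every MuSC library was digested shortly before lysis and every myoblast library 3 days before, so isolation and cell state cannot be told apart. The 6 fibro-adipogenic markers summed to 458 to 622 RPM in MuSCs and 3.10 to 4.63 RPM in myoblasts (3 called lower, 1 higher). Dpt alone made up most of the MuSC sums, at 411, 461 and 507 RPM, and was listed at 0 in all 3 myoblast libraries, while the defining markers Pdgfra and Ly6a were each at 0 in at least 1 library. The 3 endothelial markers listed summed to 41.9 to 44.3 RPM and 7.82 to 13.8 RPM (1 called lower), with Cdh5 at 0 in MuSC 04 and MuSC 05. Their part in the lower chaperone genes was not tested.

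**Figure D2:**
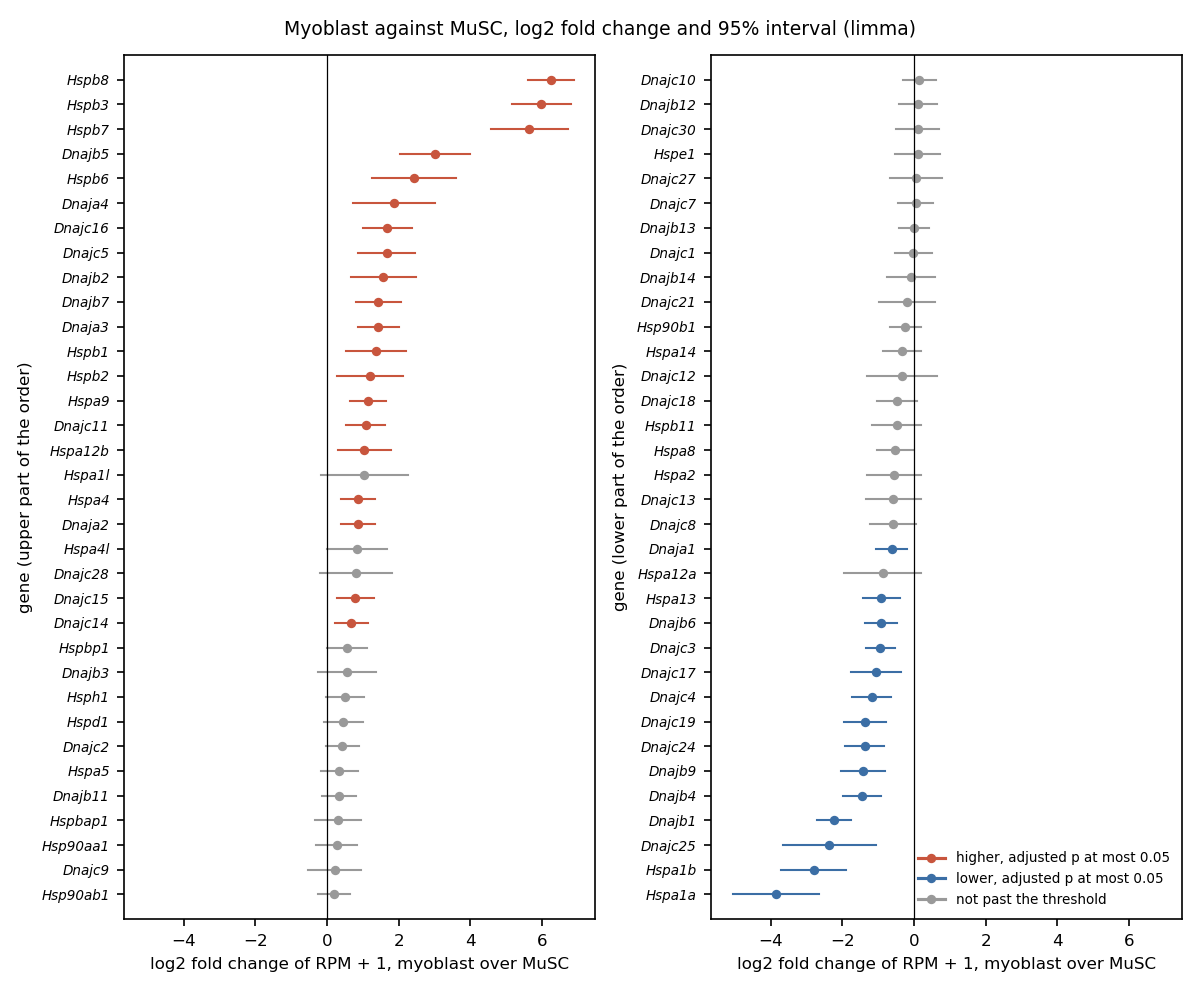
Log2 fold change (points) with its 95% interval (lines) of all 68 members tested, myoblast over MuSC, in falling order from the top of the left panel to the bottom of the right. Colored genes passed an adjusted p of at most 0.05, 20 above 0 (red) and 14 below (blue), and grey genes did not.

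Among the other Hsp70 genes, Hspa9, mitochondrial mortalin, rose from 373, 317 and 302 RPM to 969, 674 and 591 RPM (log2 fold change 1.14 ± 0.22, adjusted p = 0.00297). Hspa4, an Hsp110-type exchange factor, rose by 0.86 ± 0.21 (adjusted p = 0.00935). Hspa13, a microsomal Hsp70, fell from between 53.9 and 78.1 RPM to between 29.4 and 36.1 RPM (-0.91 ± 0.23, adjusted p = 0.011). Hspa12b, known from endothelium, passed at a low level, with 0.749 to 1.21 RPM in MuSCs and 2.05 to 4.98 RPM in myoblasts (adjusted p = 0.0308). Hspa8 was at 7459, 5939 and 4089.9 RPM in MuSCs and at 3777, 4123 and 3908 RPM in myoblasts: MuSC 06 lay within the myoblast range, without it Hspa8 was called, and the log2 fold change of -0.52 (95% interval -1.03 to -0.02) did not pass after adjustment (adjusted p = 0.085). Hspa5 (0.34, interval -0.18 to 0.86) and Hspa14, a ribosome-associated Hsp70 (-0.33, interval -0.85 to 0.20), did not pass either, nor did Hspa2, whose log2 fold change was -0.55 (adjusted p = 0.206).

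The Hsp90 genes and the chaperonin did not pass. Hsp90aa1, the inducible form, had a log2 fold change of 0.27 (interval -0.30 to 0.84), the constitutive Hsp90ab1 0.19 (-0.25 to 0.64) and the ER form Hsp90b1 -0.24 (-0.68 to 0.21). Changes of over 2-fold lie outside those intervals. Hsph1, an inducible Hsp110, stood at 0.49 (-0.04 to 1.02). Hspd1 was at 308, 322 and 341 RPM in MuSCs and at 644, 391 and 350.2 RPM in myoblasts, which do not overlap, yet its log2 fold change of 0.46 had an adjusted p of 0.15, and its partner Hspe1 overlapped (0.10, adjusted p = 0.797).

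Of the DnaJ genes, all 4 of class A, 7 of 12 of class B and 11 of 24 of class C were called, the last (45.8%) close to the 42.8% of all genes. Dnajb5, a muscle-enriched relative of Dnajb1, had the highest log2 fold change, a scale that understates low genes such as Dnajb7: 1.46, 5.97 and 2.08 RPM in MuSCs became 27.2, 38.1 and 24.0 RPM (log2 fold change 3.01 ± 0.43, adjusted p = 0.000668). The fold of the means for Dnajb5 was 9.37, and with 1 library left out from 7.39 (without MuSC 04) to 16.8 (without MuSC 05). Dnaja4 rose by 1.86 ± 0.51 (adjusted p = 0.0167), but its groups all but met, with MuSC 04 at 38.38 RPM and myoblast 04 at 38.51 RPM. Dnajb2, a neuronal and muscle DnaJ protein that sorts ubiquitylated clients, rose by 1.57 ± 0.40 (adjusted p = 0.012). Dnajc5, the cysteine string protein of exocytic vesicles, rose by 1.66 ± 0.35 (adjusted p = 0.00531), with myoblast 04 at 59.8 RPM below the others at 155 and 138 RPM. Dnajc16 rose by 1.68 ± 0.31 (adjusted p = 0.00246) and Dnaja2, a partner of Hspa8, by 0.86 ± 0.21 (adjusted p = 0.0108). Dnajb7 was listed at 0, 0 and 0.357 RPM in MuSCs and at 3.05, 1.20 and 1.98 RPM in myoblasts. It passed the filter only through the myoblast libraries, so its direction was fixed by the filter and its call is no support for it. The class B count includes Dnajb7.

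Dnajc25, known as a transmembrane DnaJ protein, fell most of class C, from 114, 75.2 and 103 RPM to 5.39, 32.4 and 30.3 RPM (-2.36 ± 0.57, adjusted p = 0.00979), with myoblast 04 far below the other myoblast libraries. Dnajc24, needed for the diphthamide of elongation factor 2, was at 34.7 to 41.2 RPM in MuSCs and at 12.2 to 15.9 RPM in myoblasts (-1.37 ± 0.24, adjusted p = 0.00205). Dnajc4 (-1.18 ± 0.24) and Dnajc17, a splicing-associated protein (-1.06 ± 0.31), fell as well.

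By compartment, an arrangement made after the values were seen, 5 of 8 mitochondrial members were called (62.5%, against 42.8% of all genes), 4 of them higher. Beside Hspa9 these were Dnaja3, mitochondrial Tid1 (1.43 ± 0.25, adjusted p = 0.00215), Dnajc11, a cristae protein (1.08 ± 0.24, adjusted p = 0.00642), and Dnajc15 (0.79 ± 0.22, adjusted p = 0.0195). Dnajc19, a DnaJ protein of the inner membrane's import motor, was the exception: 101, 136 and 147 RPM in MuSCs became 62.8, 35.9 and 50.3 RPM (-1.36 ± 0.26, adjusted p = 0.00293). Of 10 ER members 3 were called, a smaller share than the 42.8% of all genes, and all were lower. Dnajb9, a target of the unfolded protein response that holds Ire1 inactive, was at 188, 95.2 and 122 RPM in MuSCs and at 41.3, 49.0 and 54.7 RPM in myoblasts (-1.42 ± 0.27, adjusted p = 0.00304), Dnajc3, an inhibitor of the kinase Perk, at 294, 257 and 232 RPM and 122, 149.5 and 137 RPM (-0.93 ± 0.18, adjusted p = 0.00337), and Hspa13 was the third. Dnajb11, an ER partner of Hspa5, did not pass (0.32, adjusted p = 0.243).

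The genes that work with these chaperones were divided as well. Of 29 heat shock factors and co-chaperones, 7 were higher and 3 lower, with a median log2 fold change of 0.15, and the 34.5% called was below the 42.8% of all genes. Unc45b, the myosin chaperone of muscle, led at 4.09 ± 0.49 with 2.46, 4.01 and 4.69 RPM in MuSCs and 34.0, 101 and 134 RPM in myoblasts, then Bag2, an inhibitor of Chip, at 2.83 ± 0.21, and Ahsa2, an Hsp90 activator homolog, at 1.88 ± 0.25. Bag5 (-0.97 ± 0.18), Hsbp1, a heat shock factor binding protein (-0.85 ± 0.18), and Sugt1 (-0.68 ± 0.20) fell. Of 14 subunits of the CCT chaperonin and prefoldin, Cct3 (0.55 ± 0.16) and Cct6a (0.48 ± 0.16) rose (5 called in all, 35.7%), whereas the prefoldin subunits Vbp1 (-0.79 ± 0.17), Pfdn5 (-0.75 ± 0.19) and Pfdn6 (-0.71 ± 0.23) fell.

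Of 21 genes of ER folding and the unfolded protein response, 5 rose and 3 fell (38.1% called, below all genes), with a median of 0.29. Syvn1, the ligase of ER-associated degradation (2.11 ± 0.39), Hyou1, an ER Hsp110 (1.81 ± 0.36), and the sensor Atf6 (0.96 ± 0.31, with overlapping groups) rose. Herpud1 (-1.47 ± 0.23), the stress factor Ddit3 (-1.30 ± 0.27) and the transcription factor Xbp1 (-0.84 ± 0.22) fell, as did the ER members Dnajb9 and Dnajc3. Of 12 genes of mitochondrial folding and proteolysis, 6 rose and 1 fell (58.3% called), with a median of 0.47: Afg3l2, a protease (1.25 ± 0.25), Tomm70a, a receptor for chaperone-bound precursors (1.21 ± 0.17), and Htra2 (1.08 ± 0.24) rose most and Yme1l1 fell (-0.50 ± 0.18).

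The call count changed when single libraries were left out, as did that of all genes. Without myoblast 04 the members' count was 39, with Hspa5, Hsph1, Hspa14, Hspa4l, Hspb11, Dnajc8 and Dnajc28 gained. Without myoblast 05 it was 26, where 13 in place of 20 members were higher. Over all genes 6566 of 15345 were called in the main fit, 6398 of 14442 without myoblast 04 and 4598 of 14474 without myoblast 05. Higher in myoblasts were 3402 of all genes in the main fit and 2176 without myoblast 05. The calls of Dnaja4, Dnajc14, Dnajc15, Dnajc17 and Hspa12b also rested on single libraries: Dnaja4 was lost without MuSC 05, MuSC 06 or myoblast 05, Dnajc14 without MuSC 04, MuSC 06, myoblast 05 or myoblast 06, Dnajc15 without MuSC 04 or MuSC 05, Dnajc17 without these or without myoblast 05 or 06, and Hspa12b without any library but myoblast 04. Hspb3 and Hspb7 leave the tested genes whenever a myoblast library is left out, since only the 3 myoblast libraries reach the minimum count.

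Deletion of Nedd4L in MuSCs was compared with WT to ask which of these genes changed with the ligase. Both genes that passed were small heat shock proteins, Hspb1 and Hspb8, and both were higher in the Nedd4L-cKO libraries. Of 67 members tested 2 were called (2.99%), against 0.784% of all 15304 genes: 2 were higher (0.523% of all genes) and none lower (0.261% of all genes). With each library scaled to its own total the same 2 members were called, while over all genes 56 were higher and 44 lower in place of 80 and 40. At an unadjusted p under 0.05 there were 14 members (20.9%), 13 of them higher, against 14.6% of all genes. In 19 members (28.4%), 17 of them higher in Nedd4L-cKO, the groups did not overlap, against 19.3% of all genes. The members' median log2 fold change was 0.20, that of all genes 0.00.

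Hspb1 measured 55.6, 55.0 and 51.4 RPM in WT MuSCs against 169, 185 and 128 RPM in Nedd4L-cKO MuSCs. It was 2.97-fold higher by the means, with a log2 fold change of 1.54 ± 0.24 (95% interval 1.01 to 2.07, adjusted p = 0.0184). The WT libraries lay close together, and every Nedd4L-cKO library was above them. Hspb8 was at 6.36, 3.83 and 2.59 RPM in WT and at 20.9, 21.7 and 17.1 RPM in Nedd4L-cKO MuSCs, 4.68-fold by the means (log2 fold change 2.05 ± 0.35, interval 1.28 to 2.81, adjusted p = 0.0268). Here too the groups were apart, at a lower level per kilobase: 9.40 ± 1.16 RPM in Nedd4L-cKO MuSCs, against 175 ± 32.0 RPM for Hspb1 (SD, n = 3).

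Either call depended on which libraries entered. Hspb1 lost it without Nedd4L-cKO replicate 02 (adjusted p = 0.105), without WT replicate 01 (0.0504) and without WT replicate 02 (0.0732), and Hspb8 without Nedd4L-cKO replicate 01 (0.0792), without Nedd4L-cKO replicate 02 (0.117) and without WT replicate 02 (0.0764). Over all 13 alternatives the log2 fold change stayed between 1.41 and 1.69 for Hspb1 and between 1.80 and 2.32 for Hspb8.

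The remaining small heat shock proteins had positive log2 fold changes that did not pass. Hspb6 was at 10.2, 5.05 and 8.96 RPM in WT and at 16.3, 16.3 and 13.5 RPM in Nedd4L-cKO, which do not overlap (0.89, adjusted p = 0.256). Hspb3 was listed at 0 in 2 of 3 WT libraries and reached 3.10 RPM in Nedd4L-cKO replicate 02 (adjusted p = 0.39). Hspb2 overlapped (0.15, adjusted p = 0.834). Cryab, beside it, was at 623, 413 and 584 RPM in WT and at 965, 773 and 662 RPM in Nedd4L-cKO MuSCs (0.57, adjusted p = 0.338).

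**Figure D3:**
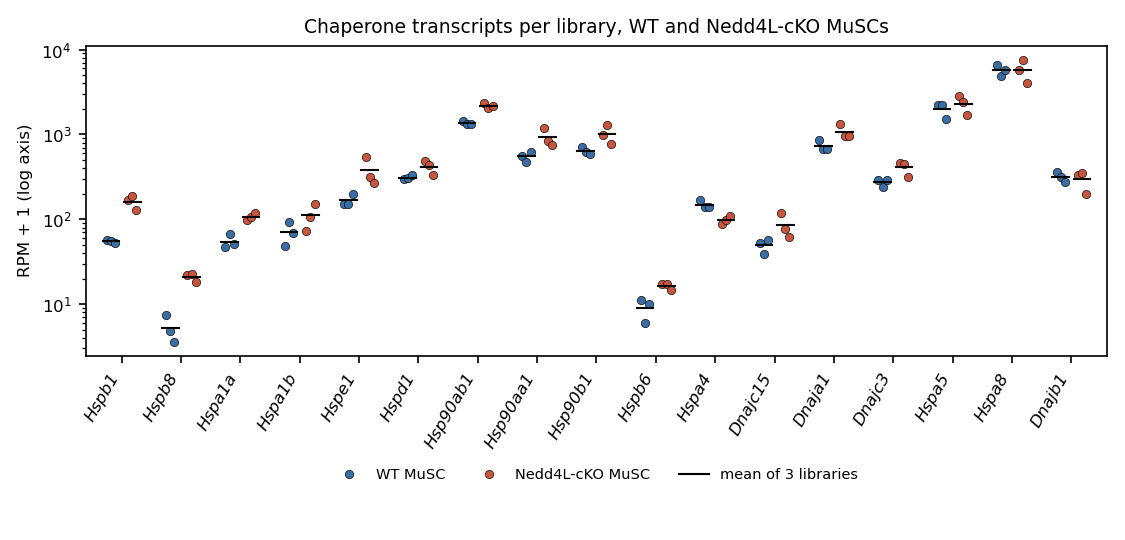
Level of 17 chaperone genes in each library of WT (blue) and Nedd4L-cKO (red) MuSCs, as RPM + 1 on a log axis, with a bar at the mean of 3 libraries. Hspb1 and Hspb8, the genes that passed the test, are the leftmost, with all Nedd4L-cKO points above all WT points, and Hspa8 and Dnajb1, at the right, overlap.

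Mural cells and muscle fibers both express Hspb1 and Hspb8, and the summed markers of both were higher in the Nedd4L-cKO libraries, although no single marker was called higher. The 12 myofiber markers summed to 631, 395 and 401 RPM in WT MuSCs and to 835, 680.1 and 654 RPM in Nedd4L-cKO MuSCs: 8 of 12 were higher in every Nedd4L-cKO library, where 9.75% of all genes were, Actn3 was called lower and none was at 0 in any library. Mural and smooth muscle markers summed to 1549.8, 1404 and 2103 RPM in WT and to 2425, 2759 and 3388 RPM in Nedd4L-cKO, with 3 of 6 higher in every Nedd4L-cKO library, none called and none at 0 in any library. Hspb1 and Hspb8 were both lowest in Nedd4L-cKO replicate 03, where the mural sum was highest and the myofiber sum lowest. The order of the mural sum followed Rgs5, at 355, 1270 and 1945 RPM in Nedd4L-cKO replicates 01, 02 and 03. Pdgfrb, Myh11 and Notch3 were also highest in replicate 03, whereas Acta2 (1661, 1066 and 993 RPM) and Tagln (346, 348 and 311 RPM) were lowest there. Of 8 myoblast markers 1 was called higher, with overlapping sums of 289 to 1080 RPM in WT and 547 to 983 RPM in Nedd4L-cKO. The share of counts from 13 mitochondrially encoded genes was 2.83% to 4.04% in WT and 5.60% to 6.21% in Nedd4L-cKO. Leukocyte markers stayed at 1.62 to 37.96 RPM in all 6 libraries, while fibro-adipogenic markers were at 697 to 2634 RPM, with the groups overlapping. Endothelial sums overlapped too, at 62.5 to 106 RPM in WT and 52.9 to 94.5 RPM in Nedd4L-cKO, as did Schwann cell sums, at 18.6 to 54.1 RPM and 5.89 to 26.9 RPM. The part of other cells in the higher Hspb1 and Hspb8 was not tested.

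Behind these genes stood several that failed the adjustment. Hspa1a was at 45.7, 65.8 and 49.5 RPM in WT and at 96.7, 105 and 118 RPM in Nedd4L-cKO MuSCs, with no overlap and a log2 fold change of 0.99 (interval 0.45 to 1.53, adjusted p = 0.0986). Hspa1b, whose reads it can share, overlapped (0.65, adjusted p = 0.388), and Dnajb1 did so with a negative value (-0.15, adjusted p = 0.842). The immediate early genes, which moved with Hspa1a between MuSCs and myoblasts, summed to 9891, 11898 and 10989 RPM in WT and to 12198, 10376 and 10643 RPM in Nedd4L-cKO, so their sums overlapped. Single genes of the list went both ways: 8 of 19 had an unadjusted p under 0.05 (42.1%, against 14.6% of all genes), and in 6 the groups did not overlap, 4 of them lower in Nedd4L-cKO, namely Ier2 (-1.10), Nr4a1 (-1.14), Dusp1 (-0.87) and Myc (-0.92), which did not pass the adjustment. Of those 19 genes Ier3 alone was called (1.31 ± 0.26, adjusted p = 0.0467), a call lost in 11 of 13 alternatives.

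Hspe1, the lid of the mitochondrial chaperonin, was at 151, 151 and 197 RPM in WT and at 543, 315 and 269 RPM in Nedd4L-cKO (1.11, interval 0.47 to 1.75, adjusted p = 0.114). Its barrel Hspd1, transcribed from the shared interval shown above, did not overlap between groups either but had a smaller log2 fold change (0.41, adjusted p = 0.463). Hspa9 overlapped (-0.09), and no other mitochondrial member was among the 10 of smallest p except Dnajc15 (0.76, adjusted p = 0.28).

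All 3 Hsp90 genes were higher in every Nedd4L-cKO library than in any WT library, and none passed. Hsp90ab1 was at 1435, 1333 and 1330.2 RPM in WT and at 2358, 2055 and 2147 RPM in Nedd4L-cKO (0.68, interval 0.20 to 1.15, adjusted p = 0.19). Hsp90aa1 was at 563, 474 and 621 RPM and at 1182, 845 and 757 RPM (0.73, interval 0.18 to 1.28, adjusted p = 0.22). For Hsp90b1 the values were 701, 614 and 581 RPM against 996, 1307 and 771 RPM (0.67, interval 0.11 to 1.22, adjusted p = 0.268). Hspa4 went down without overlap, from 168, 139 and 138 RPM to 87.5, 97.1 and 110 RPM (-0.59, adjusted p = 0.284), and was, with Dnajc13, one of the 2 members lower in every Nedd4L-cKO library.

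Hspa8 did not pass (-0.01, interval -0.60 to 0.58), nor did Hspa5 (0.21), Hsph1 (0.42), Hspa14 (0.09), Hspa2 (-0.39) or Hspa13 (-0.25). None of 4 class A, 11 class B and 24 class C DnaJ genes was called, which is near the share of all genes called (0.784%). Dnaja1 (0.55, adjusted p = 0.334) and Dnajc3 (0.57, adjusted p = 0.326) were higher in every Nedd4L-cKO library. Dnaja2 (0.19), Dnaja3 (-0.30), Dnajb2 (0.25), Dnajb4 (0.28), Dnajb5 (0.17), Dnajb6 (0.20), Dnajb9 (-0.37), Dnajb11 (0.39) and Dnajc5 (0.29) overlapped, with adjusted p between 0.512 and 0.875.

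**Figure D4:**
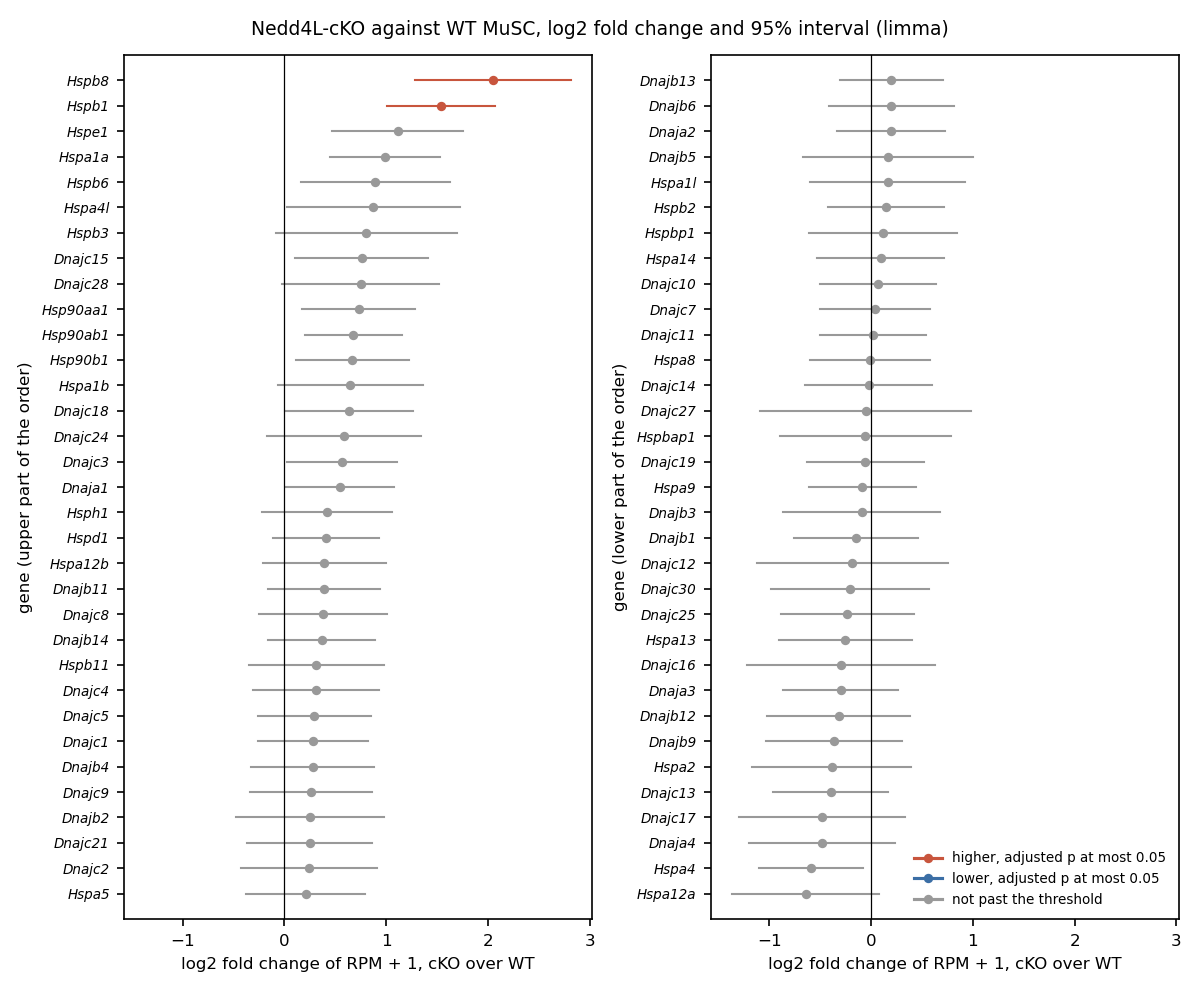
Log2 fold change (points) with its 95% interval (lines) of 66 of the 67 members tested, Nedd4L-cKO over WT, in falling order from the top of the left panel to the bottom of the right. Hspb8 (2.05) and Hspb1 (1.54), at the upper left, are the only colored genes, which marks an adjusted p of at most 0.05.

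Among the partner lists no gene was called in the genotype comparison (limma), where 0.784% of all genes were, so that none called is near that share. The lists held 28 heat shock factors and co-chaperones, 14 CCT and prefoldin subunits, 21 genes of ER folding and 12 of mitochondrial folding. At an unadjusted p under 0.05 there were 9 (32.1%), 2 (14.3%), 7 (33.3%) and 0 (0%), against 14.6% of all genes. The median log2 fold changes of the lists were -0.06, 0.27, 0.15 and 0.06.

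Set side by side, the comparisons share no library. Hspb1 and Hspb8 were called higher in both myoblasts and Nedd4L-cKO MuSCs, with 1.36 and 6.24 in the first and 1.54 and 2.05 in the second on the log2 scale. Hspa1a was at -3.86 in the first and 0.99 in the second, Hspa9 at 1.14 and -0.09, and Hspa4 at 0.86 and -0.59. Of 66 members tested in both, 39 had the same sign (59.1%), and of 14343 genes tested in both 48.0% did.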

How the data were processed

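The deposited values are normalized counts, a signal per gene that the authors made with Kallisto 0.46.1 (GENCODE M28 transcripts), tximport and DESeq2, so each library was already scaled and no raw count was used. RPM columns and the authors' fold changes and p-values were left out. Values under 30 were whole multiples of a step, within 0.05, in at most 64.6% of cases, so depth in reads is unknown.

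Values were divided by the mean library total of their table. Genes with 10 or more normalized counts in 3 or more libraries were tested with limma 3.58.1 in R 4.3.3 (eBayes with trend and robust options) on log2(RPM + 1), which understates changes of low genes, with Benjamini-Hochberg adjustment over all genes tested. The code was tested on simulated data. The 2 tables were normalized separately and each was tested alone.

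The members and all lists were chosen with earlier results of these data known. Genes named are a core of 34 symbols (Dnajc6 is in neither table), the 10 largest called changes each way without overlap, the called and 10 of smallest p between genotypes, and the called genes of other lists, the 3 largest each way in myoblasts. Other members named were chosen after their values were seen, as was the grouping by compartment. The pairing of MuSCs and myoblasts was read from sample numbers shared in the labels, which do not say that a number is a mouse. Correlations of same-numbered deviations were -0.03, -0.01 and 0.02. Group spread stands for 3 mice. Alternatives covered scale, filter, pseudocount, moderation, threshold, a replicate block and each library left out. Sequences and positions are from GRCm39 with GENCODE M39, where all 69 gene identifiers matched. The values of 1 member are not reported here, although it is included in the counts.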

Additional observations from a re-analysis of the deposited data

How the results depend on the processing

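In the myoblast comparison the number of members called was 34 and lay between 26 and 35 under the 8 settings that kept all libraries (other scales, filters, pseudocount, moderation, threshold, block). The block by shared sample number (replicate block) gave 32, with Dnaja1 and Dnajc14 lost, and the block changed no other call of a member. Leaving out single libraries gave 26 to 39 in all, 13 to 22 higher and 12 to 17 lower. Over all genes the same fits called 4598 to 6398, against 6566 with all libraries. Without myoblast replicate 05, 13 were higher. In the genotype comparison 2 members were called under each such setting, the block included, and 0 to 2 without single libraries (0 to 2 of them higher): 0 without Nedd4L-cKO replicate 02 or WT replicate 02, and 1 without Nedd4L-cKO replicate 01 or WT replicate 01. The block there rests on numbers shared by different mice, whose deviations correlated at 0.02, -0.02 and -0.18.

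With the totals of single libraries as the scale, the median log2 fold change of all genes went from 0.04 to 0.14 between MuSCs and myoblasts and from 0.00 to -0.09 between genotypes, and that of the members from 0.17 to 0.31 and from 0.20 to 0.09. No named gene changed its direction with its call in any setting. Over all named genes and settings, 770 values in the myoblast comparison and 421 in the genotype comparison kept their side of the threshold, 62 and 17 lost the call, and 4 and 0 gained one. Over all genes 120 were called between genotypes, 76 with the block, 50 without trend and robust options, 213 with the stricter filter and 21 to 176 without single libraries. Low normalized counts limit Hspb3, Hspb7, Dnajb7 and Hspa12b, whose fitted changes depend on the pseudocount.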

Other observations

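Members known mainly from testis or other tissues were near the bottom in all 12 libraries. Dnajb13, an axonemal DnaJ protein, lay between 0.0751 and 0.864 RPM, Hspa1l between 0 and 4.76 RPM and Dnajb3 between 1.07 and 5.31 RPM.

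WT MuSCs were sequenced in both tables from different mice, which were normalized separately, so their levels are set side by side with no test. Hspb8 was at 5.78 to 9.76 RPM in one set and 2.59 to 6.36 RPM in the other, Hspb1 at 37.7 to 74.4 RPM and 51.4 to 55.6 RPM, Hspa1a at 16.6 to 59.5 RPM and 45.7 to 65.8 RPM, and Dnajb1 at 292 to 446 RPM and 272 to 364 RPM. Hspb2 was at 62.4 to 91.7 RPM in the first and 33.1 to 43.2 RPM in the second.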
